A study of Drosophila melanogaster with 2 samples.

Results

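The aminoacyl-tRNA synthetase genes were examined for occupancy by Zelda, the pioneer transcription factor of the early Drosophila melanogaster embryo, in embryos of a transgenic line. They were chosen by name: a protein-coding gene was a member when its symbol was the abbreviation of an amino acid followed by RS, with or without the mitochondrial suffix -m, and GluProRS was added. The rule found 33 of 13968 protein-coding genes. The 15 with the suffix are called mitochondrial here and the 18 without it cytoplasmic. The RefSeq description of all 33 named a tRNA synthetase. Cytoplasmic phenylalanyl-tRNA synthetase, whose subunit genes alpha-PheRS and beta-PheRS have other symbols, fell outside the rule and is described with the related genes.

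The study held 1 group, mixed-sex whole embryos aged 0 to 24 hours that stably carried a C-terminal GFP fusion of zld (also called vfl), with 2 biological replicates numbered 2 and 3. The sample description gives an antibody against GFP, while the antibody label reads vfl. What drives the fusion is not given in the sources used here, and the embryos pooled all cell types and stages, so a signal cannot be placed in a cell type or an hour of development. Peak lists hold no marker expression, so the tissue label could not be checked against markers. The deposited files on the dm6 build were a relaxed list of 30000 peaks for each replicate, another of 30000 from both replicates pooled, and a list of 2876 peaks thresholded for reproducibility, which were the 2876 strongest of the pooled list. Each peak carries the authors' signal value, whose scale differs between lists, so a signal is compared only within its list and the rank of a peak (1 is the strongest) is given beside it. The summit is the position of the peak's maximum. There is no control group, and read depth is unknown.

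Aminoacyl-tRNA synthetases attach each amino acid to its matching tRNA, the charged form that ribosomes use. The cytoplasmic and the mitochondrial enzymes are both encoded in the nucleus and serve separate protein synthesis systems. GluProRS encodes a fusion of the glutamate and proline enzymes. Zelda binds the word CAGGTAG and close variants, and is best known at enhancers and promoters of genes first transcribed in the zygote.

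The sequence around the summits of the bound genes, defined below, had a higher median share of A and T than that of all thresholded summits. It held no CAGGTAG, a word that lay at only 2.02% of all thresholded summits. Close variants of CAGGTAG were not searched. The windows below run 100 bases to each side of the pooled summit (201 bases, dm6, from the NCBI Release 6 assembly, read 5′ to 3′ in the sense of the member gene). They are shown because they belong to 3 of the strongest cytoplasmic genes, GluProRS (chr3R:23958432-23958632, minus strand), ThrRS (chr2L:12103490-12103690, plus strand) and IleRS (chr3L:22288444-22288644, plus strand), and to the strongest mitochondrial gene, LeuRS-m (chr3L:4824913-4825113, plus strand). Capitals mark matches, on either strand, to 6 words: CAGGTAG (Zelda), TATCGATA (the promoter factor DREF), GGTCACAC (the core promoter factor M1BP), GAGAG (GAGA factor), CAGCTG (an E-box) and TGATGNAA (a type bound by ATF4). The windows of GluProRS, ThrRS and LeuRS-m held none of the 6, and that of IleRS held TATCGATA and CAGCTG.
GluProRS: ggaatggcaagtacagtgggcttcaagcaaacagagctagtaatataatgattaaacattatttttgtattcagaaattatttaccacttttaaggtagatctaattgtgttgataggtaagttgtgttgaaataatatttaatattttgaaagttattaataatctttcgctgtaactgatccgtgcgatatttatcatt
ThrRS: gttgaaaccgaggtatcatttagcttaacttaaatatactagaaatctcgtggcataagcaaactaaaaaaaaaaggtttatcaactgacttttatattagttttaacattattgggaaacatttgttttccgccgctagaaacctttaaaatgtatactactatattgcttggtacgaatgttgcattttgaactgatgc
IleRS: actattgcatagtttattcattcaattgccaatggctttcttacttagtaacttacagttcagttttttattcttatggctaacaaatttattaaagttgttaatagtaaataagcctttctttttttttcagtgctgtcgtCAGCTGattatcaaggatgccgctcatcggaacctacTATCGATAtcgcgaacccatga
LeuRS-m: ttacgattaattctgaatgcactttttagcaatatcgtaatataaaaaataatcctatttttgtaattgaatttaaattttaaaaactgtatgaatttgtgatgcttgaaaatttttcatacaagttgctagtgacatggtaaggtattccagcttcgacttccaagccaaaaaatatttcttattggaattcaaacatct

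TATCGATA was found in some promoters of both classes. In the 300 bases from 250 before the outermost annotated start to 50 from it on, 4 of 18 cytoplasmic genes and 1 of 15 mitochondrial genes (PheRS-m) held it, beside 9.36% of the promoters of all 13968 genes. The sites of the 4 cytoplasmic genes are shown with 11 bases to each side, the word in capitals, because all 4 words lie close upstream of the starts. The first base of the word lay 19 bp upstream of the start in AlaRS (word at chr2L:8381776-8381783), 34 bp upstream in ArgRS (chrX:15844172-15844179), 42 bp upstream in IleRS (chr3L:22288623-22288630) and 72 bp upstream in TrpRS (chr3R:9266969-9266976).
AlaRS: atctctaaatcTATCGATAtctcatccagt
ArgRS: gctgttatcgtTATCGATAggcgacgtgtg
IleRS: tcggaacctacTATCGATAtcgcgaaccca
TrpRS: atatttctcatTATCGATAtttttaacagt

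Cytoplasmic enzyme genes had thresholded peaks at a higher share than mitochondrial ones. Bound here means that at least 1 of a gene's annotated transcript starts had a summit of the thresholded list no more than 1 kb away. By this rule 9 of 18 cytoplasmic genes (50%) and 2 of 15 mitochondrial genes (13.3%) were bound, against 19.7% of all protein-coding genes. The bound cytoplasmic genes were SerRS, GluProRS, ThrRS, IleRS, AsnRS, ValRS, ArgRS, AspRS and AlaRS, and the bound mitochondrial genes were LeuRS-m and PheRS-m. In the lists of the single replicates, taken down to rank 2876, the counts were 8 of 18 cytoplasmic and 3 of 15 mitochondrial genes in replicate 2, where 19.3% of all genes qualified. They were 8 of 18 cytoplasmic and 1 of 15 mitochondrial genes in replicate 3, where 19.4% did. In both replicates at once 7 cytoplasmic genes and 1 mitochondrial gene qualified (38.9% and 6.67%), beside 14.6% of all genes. The order of the classes was thus the same in either replicate, and the cytoplasmic share was above that of all genes in each. When a summit counted for its nearest gene alone, 5 cytoplasmic genes and 1 mitochondrial gene were bound, beside 13.9% of all genes. No test of the difference was made, because the members are single genes and not replicates of a condition.

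**Figure D1:**
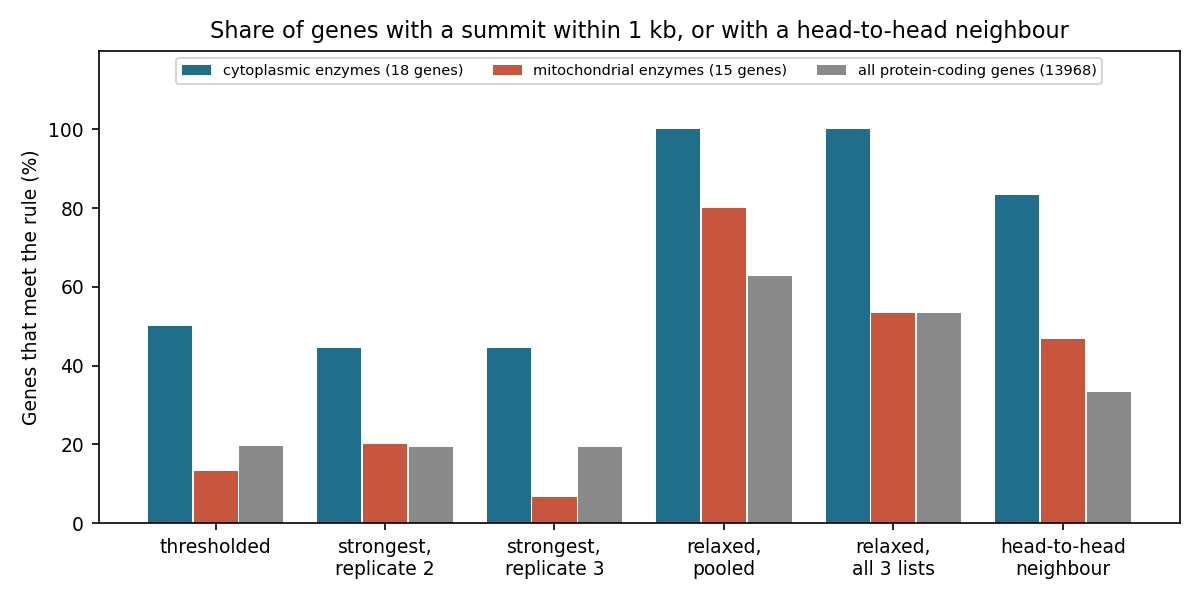
Percentage of genes that meet each rule (y axis) for the 18 cytoplasmic enzyme genes, the 15 mitochondrial enzyme genes and all 13968 protein-coding genes. The first 5 sets of bars are peak lists and the last is the gene arrangement; cytoplasmic genes stand at 50% in the thresholded list, mitochondrial genes at 13.3% and all genes at 19.7%.

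The 3 strongest cytoplasmic genes, SerRS, GluProRS and ThrRS, had similar ranks in both replicates. SerRS, the serine enzyme, had signal 206 in the pooled list (rank 241), 123 in replicate 2 (rank 249) and 81.2 in replicate 3 (rank 276). GluProRS had signal 178 pooled (rank 333), 105 in replicate 2 (rank 348) and 72.8 in replicate 3 (rank 352). ThrRS, which charges threonine tRNA, had signal 130.4 pooled (rank 661), 78.2 in replicate 2 (rank 657) and 53.5 in replicate 3 (rank 739). These 3 genes stayed within the strongest 739 peaks of every list. IleRS, for isoleucine, had signal 121 pooled (rank 765), 60.4 in replicate 2 (rank 1102) and 62.9 in replicate 3 (rank 493). AsnRS, for asparagine, had signal 115 pooled (rank 868), 75.6 in replicate 2 (rank 721) and 42.4 in replicate 3 (rank 1259). IleRS therefore stood higher in replicate 3 and AsnRS higher in replicate 2.

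The other 4 bound cytoplasmic genes lay nearer the threshold, whose lowest signal was 61.8. ValRS, for valine, had signal 79.7 pooled (rank 1785), 45.8 in replicate 2 (rank 1891) and 33.2 in replicate 3 (rank 2156). ArgRS, for arginine, had signal 71.0 pooled (rank 2209), 38.8 in replicate 2 (rank 2492) and 31.6 in replicate 3 (rank 2409). Both were among the 2876 strongest peaks of each replicate. AspRS, for aspartate, had signal 69.2 pooled (rank 2308), 36.0 in replicate 3 (rank 1812) and 34.6 in replicate 2 (rank 3031). AlaRS, for alanine, had signal 66.0 pooled (rank 2553), 46.5 in replicate 2 (rank 1839) and 19.7 in replicate 3 (rank 6212). AspRS thus fell just short in replicate 2, and AlaRS fell well short in replicate 3. Over the 9 bound cytoplasmic genes the pooled signal ran from 66.0 to 206 with a median of 115, beside a median of 96.1 over the 2750 bound genes of the genome.

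The 2 bound mitochondrial genes differed from each other. LeuRS-m, for leucine in the mitochondrion, had signal 163 in the pooled list (rank 397), 85.5 in replicate 2 (rank 532) and 76.3 in replicate 3 (rank 316), and was the third strongest of all 33 members by pooled rank. PheRS-m, the phenylalanine enzyme of the mitochondrion, had signal 71.0 pooled (rank 2211), 50.9 in replicate 2 (rank 1548) and 23.8 in replicate 3 (rank 4272). LeuRS-m was strong in every list, while PheRS-m was below the 2876 strongest peaks of replicate 3. ArgRS-m went the other way: its pooled signal of 47.6 (rank 4395) missed the threshold, but its signal of 46.3 in replicate 2 (rank 1848) put it among that replicate's strongest peaks, and in replicate 3 it had signal 23.4 (rank 4437).

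**Figure D2:**
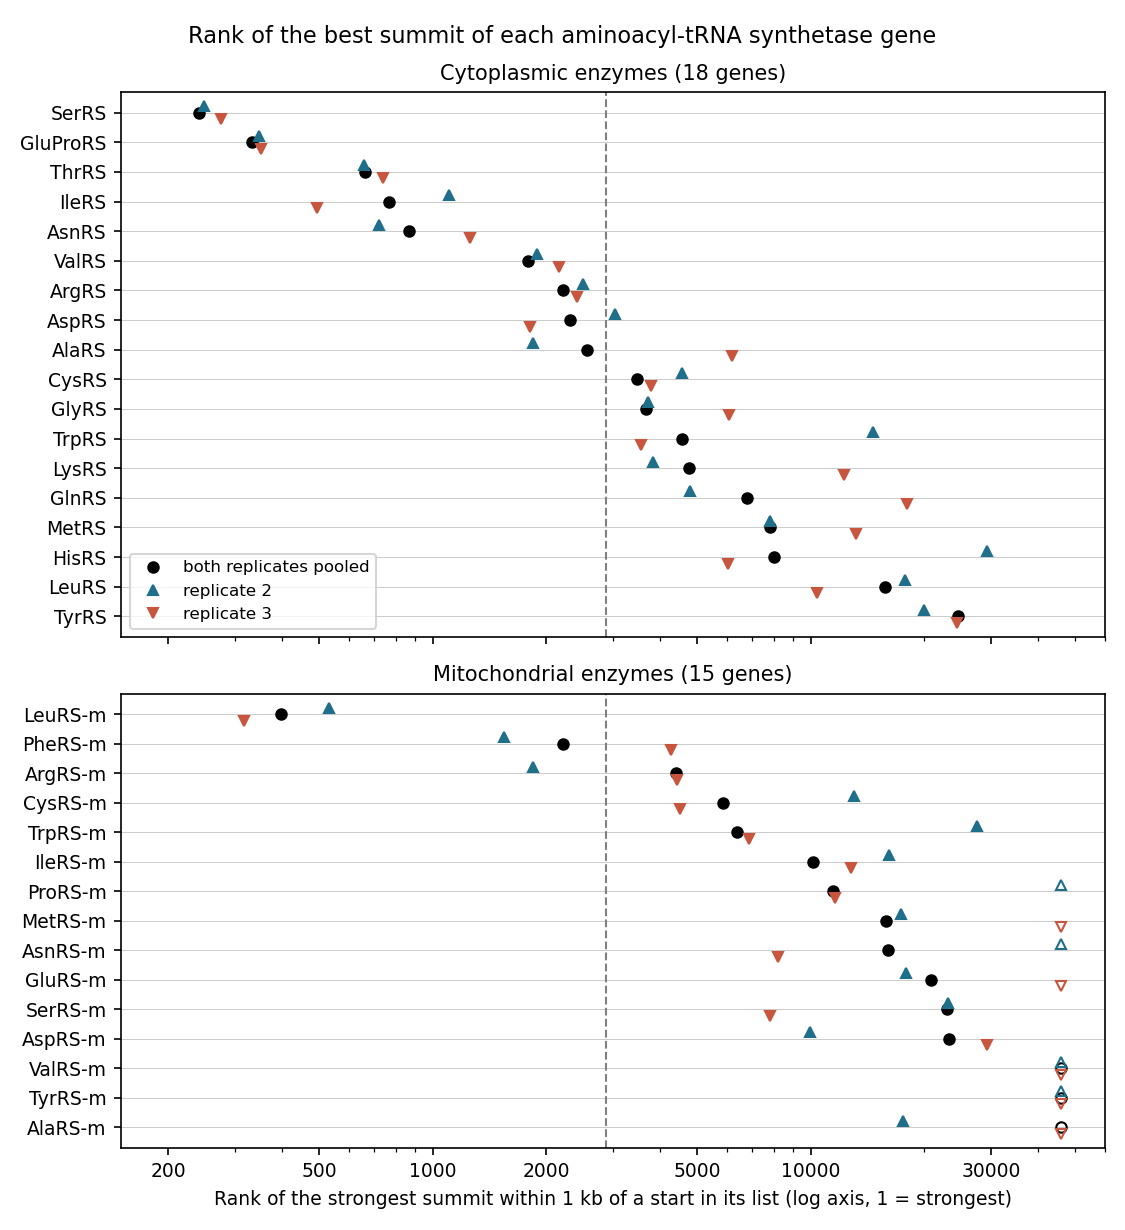
Rank of the strongest summit within 1 kb of a start (log axis, 1 is the strongest) for each cytoplasmic and mitochondrial enzyme gene in the pooled list and in each replicate. The dashed line is rank 2876, the last thresholded peak; open symbols at the right edge mark genes with no summit in that list, all of them mitochondrial.

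Below the threshold, all cytoplasmic genes still had a relaxed peak. The relaxed pooled list placed a summit within 1 kb of 18 of 18 cytoplasmic and 12 of 15 mitochondrial genes, beside 62.9% of all genes. In the pooled list and both replicates together the counts were 18 and 8 (100% and 53.3%), beside 53.5% of all genes. In the pooled list both classes were above the share of all genes (80.0% of mitochondrial genes). In the 3 lists together the cytoplasmic share was above that of all genes and the mitochondrial share close to it. At a distance of 200 bp the counts in the 3 lists together were 14 cytoplasmic genes and 1 mitochondrial gene. The share of all genes at that distance was not computed, so these counts are not read against it. The text with the deposited files describes the relaxed lists as holding peaks and background, so a relaxed summit alone does not show occupancy. The median signal of the best pooled summit was 60.5 over 18 cytoplasmic genes and 28.5 over 12 mitochondrial genes, beside 40.9 over 8780 genes of the genome. Cytoplasmic genes thus stood above the middle of all genes with a summit and mitochondrial genes below it. The best summits of both replicates lay within 200 bp of the pooled one at 15 of 18 cytoplasmic and 6 of 15 mitochondrial genes (83.3% and 40.0%), beside 35.7% of all genes. The mitochondrial share was thus close to that of all genes. Genes without a summit in all 3 lists count as failing here. Among genes with one in all 3 lists, it was 15 of 18 cytoplasmic and 6 of 8 mitochondrial genes, beside 4985 of 7472 genes. At all 11 bound members the replicate summits lay that close, the farthest by 130 bp. Those members came from a list thresholded for reproducibility, so this closeness is no separate support for them.

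Just under the threshold, the 3 cytoplasmic genes closest to it were CysRS, GlyRS and TrpRS. CysRS, for cysteine, had signal 55.1 pooled (rank 3470), 27.3 in replicate 2 (rank 4567) and 25.4 in replicate 3 (rank 3786). GlyRS, for glycine, had signal 53.4 pooled (rank 3668), 30.7 in replicate 2 (rank 3717) and 19.9 in replicate 3 (rank 6083). TrpRS, for tryptophan, had signal 46.5 pooled (rank 4566), 26.2 in replicate 3 (rank 3565) and 15.1 in replicate 2 (rank 14621). None of the 3 reached the strongest 2876 in either replicate, and the replicates were far apart for TrpRS. The best summit of CysRS was doubtful as its own: it lay 968 bp upstream of the CysRS start but 23 bp from the start of CG30094, and the best summit of replicate 3 was 913 bp away from it. The 9 cytoplasmic genes below the threshold had pooled signals of 17.8 to 55.1, with a median of 36.9. Further down came LysRS (pooled rank 4777), GlnRS (6771), MetRS (7808), HisRS (8006), LeuRS (15747) and TyrRS (24468). HisRS had signal 10.4 in replicate 2 at rank 29275, close to the end of that list, and its pooled summit lay 897 bp inside the gene. TyrRS had signal 17.8 in the pooled list, whose lowest value was 15.6.

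The 3 mitochondrial genes closest to the threshold were ArgRS-m, CysRS-m and TrpRS-m. CysRS-m had signal 39.9 pooled (rank 5851), 23.2 in replicate 3 (rank 4521) and 15.9 in replicate 2 (rank 13025). TrpRS-m had signal 38.1 pooled (rank 6372), 18.7 in replicate 3 (rank 6858) and 10.7 in replicate 2 (rank 27610). Both were weaker in replicate 2. The other mitochondrial genes with a pooled summit, IleRS-m, ProRS-m, MetRS-m, AsnRS-m, GluRS-m, SerRS-m and AspRS-m, had pooled ranks of 10136 to 23219. The 10 mitochondrial genes with a pooled summit below the threshold had signals of 18.4 to 47.6, with a median of 25.2. AlaRS-m, TyrRS-m and ValRS-m had no summit within 1 kb in the pooled list, and AlaRS-m had one in replicate 2 alone (signal 13.8, rank 17558). Over all members with a summit in both replicates, the signals of the replicates had a Spearman rho of 0.750 over 26 genes, beside 0.748 over 7642 genes of the genome, where the points share the same 2 libraries.

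Set against each other by amino acid, the cytoplasmic enzyme gene had the higher signal in nearly all pairs, some with both genes below the threshold. In 14 pairs of a cytoplasmic and a mitochondrial gene for the same amino acid, with GluProRS standing for glutamate and for proline, the cytoplasmic gene had the higher signal in 13 in the pooled list, in 12 in replicate 2 and in 13 in replicate 3. A gene with no summit counts as lower than the end of its list. SerRS and SerRS-m had pooled signals of 206 and 18.5. IleRS and IleRS-m had 121 and 29.4, and ValRS had 79.7 where ValRS-m had no summit. Leucine was the exception in all 3 lists, but the pooled LeuRS-m summit lay nearer to the start of Dhc64C (674 bp) than to its own (840 bp). LeuRS had signal 23.0 pooled, 13.7 in replicate 2 and 15.1 in replicate 3, against 163, 85.5 and 76.3 for LeuRS-m in the same lists. For arginine the order depended on the replicate: ArgRS and ArgRS-m had 38.8 and 46.3 in replicate 2, and 31.6 and 23.4 in replicate 3. The cysteine and tryptophan pairs were close, with pooled signals of 55.1 for CysRS and 39.9 for CysRS-m, and 46.5 for TrpRS and 38.1 for TrpRS-m. In both of these pairs, and in those of methionine and tyrosine, neither gene was bound, and a relaxed summit alone does not show occupancy. TyrRS had signal 17.8 in the pooled list, whose lowest value was 15.6, and TyrRS-m had no summit. The CysRS summit lay 23 bp from the start of CG30094, and that of CysRS-m 11 bp from the start of O-fut1. For 5 cytoplasmic genes, GlnRS, GlyRS, HisRS, LysRS and ThrRS, the annotation held no gene with the matching -m symbol. Whether these genes also supply the mitochondrial enzyme was not examined, so their class rests on the symbol alone.

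**Figure D3:**
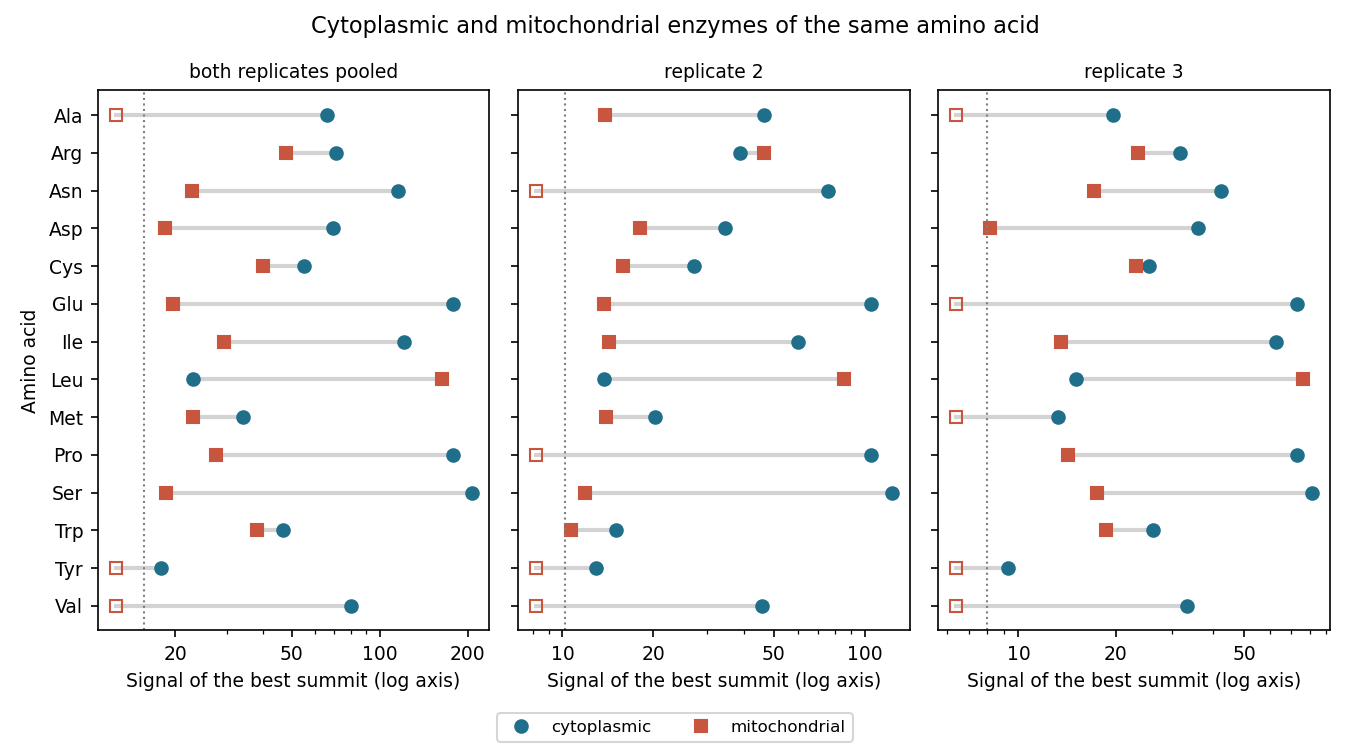
Signal of the best summit within 1 kb (log axis, each list on its own scale) for the cytoplasmic and mitochondrial enzyme genes of the same amino acid, in the pooled list and in each replicate. Open squares left of the dotted line, the weakest peak of the list, are genes with no summit; leucine is the amino acid whose mitochondrial gene is higher in all 3 panels.

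The classes also differed in how their promoters are arranged, which touches every count above. A head-to-head neighbour is here a protein-coding gene on the other strand whose outermost start lies within 1 kb upstream of the outermost start of the member. Such neighbours stood beside 15 of 18 cytoplasmic genes (83.3%) and 7 of 15 mitochondrial genes (46.7%), against 33.3% of all genes. One summit between a pair of such starts counts for both genes, and 35.2% of all genes with a head-to-head neighbour were bound, against 12.0% of those without. Among members with such a neighbour, 7 of 15 cytoplasmic and 1 of 7 mitochondrial genes were bound. Of these, AspRS and LeuRS-m had their summit outside the stretch between the paired starts. Among members without such a neighbour, 2 of 3 cytoplasmic genes (SerRS and AlaRS) and 1 of 8 mitochondrial genes (PheRS-m) were bound. The cytoplasmic share was above the mitochondrial one within each arrangement, but the groups are small. Cytoplasmic genes also had more annotated starts. With 1 start, 3 of 11 cytoplasmic and 2 of 13 mitochondrial genes were bound, against 15.3% of all such genes. With 2 or more starts, 6 of 7 cytoplasmic and 0 of 2 mitochondrial genes were, against 31.8%. The part of gene arrangement and of the number of starts in the difference between the classes was not tested.

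At 10 of the 11 bound members the summit also lay within 1 kb of a start of another gene, and at 5 of them that start was nearer than the member's own. Over all 2750 bound genes the shares were 66.3% with a start of another gene within 1 kb and 32.3% with such a start nearer, so shared summits were common in the genome too. The summit of GluProRS lay 141 bp upstream of its start and 119 bp from the start of AP-1sigma, which encodes a subunit of a clathrin adaptor. That of ArgRS was 202 bp upstream of its start and 129 bp from the start of CG8578. For ValRS the distances were 467 bp to its own start and 46 bp to that of Kdm4B, a histone demethylase gene, and for LeuRS-m they were 840 bp to its own start and 674 bp to that of Dhc64C, the cytoplasmic dynein heavy chain gene, in an intron of which the summit lay. AspRS had its summit in introns of AspRS and of Nmda1, which RefSeq describes as an N-methyl-D-aspartate receptor-associated protein gene, 176 bp upstream of an internal start of AspRS and 122 bp from a start of Nmda1. These peaks cannot be given to 1 of the 2 genes from their position.

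The other bound members were nearest to the summit themselves. SerRS had its summit 13 bp downstream of a start, in its 5′ UTR and in an intron of CG17260. AsnRS had it 49 bp upstream and IleRS 121 bp upstream, each between its start and that of a neighbour, DCTN6-p27 (a dynactin subunit gene) and Hem (a gene of the SCAR actin-regulatory complex). ThrRS had it 161 bp upstream, between its start and that of Patsas, and AlaRS 190 bp upstream, in the 3′ UTR of CG13392. PheRS-m, with its summit 81 bp upstream, was the only bound member with no other protein-coding start within 1 kb. Of the 11 bound members 10 had the summit upstream of the nearest own start (90.9%), beside 85.7% of all bound genes, and 8 had it within 200 bp (72.7%), beside 64.0%. Among the weaker members, the best pooled summits of GluRS-m, IleRS-m and MetRS-m lay in coding exons of other genes, TyrRS, ATPsynbetaL and CG14840, and that of TyrRS lay in its own coding exon. The best peak of GluRS-m thus lay within another member.

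**Figure D4:**
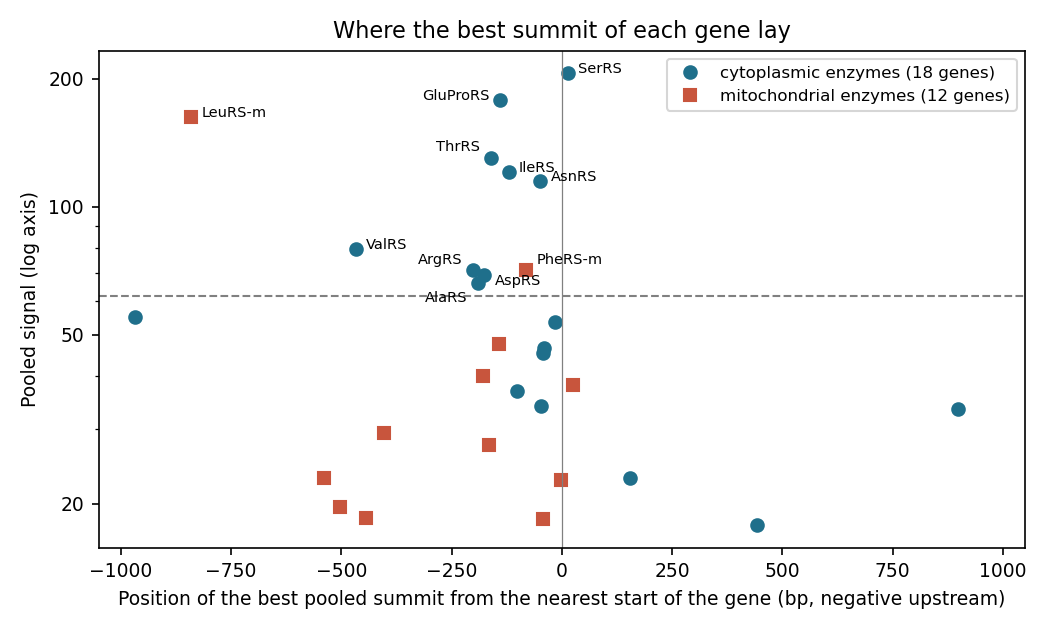
Pooled signal of the best summit (log axis) against its position from the nearest annotated start of the gene (bp, negative upstream) for the 18 cytoplasmic and 12 mitochondrial genes with a pooled summit. The dashed line is the lowest thresholded signal, 61.8; 10 of the 11 named genes above it lie upstream of the start, LeuRS-m farthest at 840 bp.

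Within 100 bp of the summit, each of the 6 words lay at 2 or fewer of the 11 bound members. CAGGTAG lay within 100 bp of the summit at 0 of 11 bound members, beside 2.02% of the 2876 thresholded summits, and in 0 of 33 member promoters, beside 1.64% of all promoters. At a share of 2.02%, 11 windows are too few to show a lack of the word. TATCGATA lay at the summit of IleRS and PheRS-m, beside 6.68% of thresholded summits. The TATCGATA words of the AlaRS and ArgRS promoters, printed above, lay more than 100 bp from the summits of those genes. GGTCACAC was at the summit of ValRS alone among bound members, beside 3.58% of thresholded summits, and in the promoters of GlnRS, AsnRS-m, AspRS-m and ProRS-m, beside 7.69% of all promoters. GAGAG and CAGCTG each lay at 2 of 11 bound summits, beside 23.6% and 12.1% of thresholded summits. In promoters, GAGAG was found in 4 of 18 cytoplasmic and 2 of 15 mitochondrial genes, beside 29.7% of all promoters. CAGCTG was in 9 of 18 cytoplasmic and 7 of 15 mitochondrial promoters, beside 17.6% of all promoters. TGATGNAA lay at 0 of 11 bound summits (2.47% of thresholded summits) and in the promoter of CysRS alone among members, beside 4.07% of all promoters. The share of G and C in the 201-base windows of bound members ran from 26.4% to 38.3% with a median of 32.8%, beside a median of 37.3% over all thresholded summits.

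Genes that act beside the synthetases were bound in both compartments, and their counts did not all fall the same way between cytoplasm and mitochondrion. Of 26 related genes found in the annotation, 8 were bound (30.8%), against 19.7% of all genes. Elongation factors act while the ribosome lengthens a protein, and 4 of 7 cytoplasmic ones were bound, against 0 of 4 mitochondrial ones. The bound ones were eEF1gamma (pooled signal 161, rank 408), eEF2 (signal 117, rank 830), eEF1alpha1 (signal 109, rank 954) and eEF5 (signal 95.2, rank 1248). Among these eEF2 had signal 57.0 in replicate 2 and 64.9 in replicate 3, and eEF1gamma had 92.2 and 70.4. Head-to-head neighbours stood beside eEF1alpha1 (ERp60) and eEF5 (ppk29), so their summits may be shared, but not beside eEF1gamma or eEF2. The unbound eEF1beta and eEF1delta also had one, and of the 4 mitochondrial factors only mEFTs did. The part of gene arrangement in these counts was not tested. None of the 3 listed genes outside the naming rule, 2 synthetase subunit genes and a relative of a synthetase gene, was bound. The strongest of them was beta-PheRS with signal 57.3 (rank 3275), then Slimp, a mitochondrial relative of seryl-tRNA synthetase, with 54.6 (rank 3537), and alpha-PheRS with 28.7 (rank 10605).

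Of 7 partners that act on or with the synthetases, 3 were bound, beside 19.7% of all genes. The values of GatB, AIMP2, AIMP3 and Gcn2, which lay further below the threshold, were chosen for mention after they were seen. GatA and GatC, subunits of the mitochondrial amidotransferase that converts mischarged tRNA, had pooled signals of 174 (rank 347) and 77.1 (rank 1900), while GatB stood at rank 9408. GatA was alike in the replicates, with signal 105 in replicate 2 (rank 347) and 70.9 in replicate 3 (rank 374). AIMP1, a scaffold of the multisynthetase complex, had signal 67.1 (rank 2478), and AIMP2 and AIMP3 stood at ranks 11794 and 5867. GatA, GatC and AIMP1 each had a head-to-head neighbour (P5cr, Polr2C and PAN2), so their summits may be shared with it. The unbound GatB had one too (Tsc1). Dtd, which removes D-amino acids from tRNA, missed the threshold narrowly with signal 61.0 (rank 2934). A further 5 genes were grouped for the response to uncharged tRNA, with PEK, which encodes a kinase of the endoplasmic reticulum, included. Among them only Thor, an inhibitor of cap-dependent translation, was bound, a share near the 19.7% of all genes. It had signal 97.7 (rank 1167), with 53.0 in replicate 2 and 50.9 in replicate 3. The kinase gene Gcn2, which senses uncharged tRNA, stood at rank 8255, and crc, which encodes ATF4, had signal 55.0 (rank 3488).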

How the data were processed

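Chromatin from whole embryos of 1 transgenic line was sonicated (size range 200 to 800, per the labels), precipitated and sequenced in 2 biological replicates. Peaks were deposited by the authors as narrowPeak lists with a signal value per peak; per the text deposited with them, each relaxed list came from 1 alignment or both and a further file, and the thresholded list from the 3 relaxed lists. For the peak caller, aligner, filters and reproducibility threshold, nothing is stated in the sources used. Signal was used only within a list. Depth is unknown, so no interval was set. The dm3 lists were not used here.

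Gene models were protein-coding genes (19630 distinct starts on the named chromosome arms) of Ensembl release 115, BDGP6.54, in dm6 coordinates, counted from 1. The strongest summit within 1 kb of any start was taken for each gene and list. The members, gene lists, words and rules were chosen with earlier results of these data known; of 27 related genes, 1 was not matched. Values are given for all bound members, the 3 members of each class nearest below the threshold, and related genes by the same rule. Among related genes, the values of Slimp, alpha-PheRS, GatB, AIMP2, AIMP3 and Gcn2 are given outside this rule. Values of other members that illustrate a pair, a place or the end of a list were chosen after they were seen. Counts stand beside those over all genes with no test, since there is 1 group and the members are not replicates. The assignment of summits to genes was tested on simulated data. Windows that overlap a UTR were not printed. Alternatives were other distances, starts, assignments, lists and windows. Python 3.11.15, numpy 2.4.6, pandas 2.3.3 and matplotlib 3.10.9 were used.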

Additional observations from a re-analysis of the deposited data

How the results depend on the processing

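The number of bound cytoplasmic genes, 9 of 18, was 5 when a summit counted for its nearest gene alone, where 13.9% of all genes were bound, and 5 in the thresholded peaks above their median rank, where 11.2% were. It stayed between 6 and 9 at 200 bp, 500 bp and 2 kb, with outermost starts alone and with peaks that cover a start. Under these settings 12.3% to 23.7% of all genes were bound. The count was 13 with pooled peaks down to 2 times the rank of the threshold, where 31.9% of all genes qualified. That alternative was chosen after seeing the data. Without 1 replicate it was 8 either way, where 19.4% (without replicate 2) and 19.3% (without replicate 3) of all genes were bound. The number of bound mitochondrial genes, 2 of 15, was 1 at 200 bp, at 500 bp, with nearest genes, with covering peaks, above the median rank and among members with a head-to-head neighbour, the last chosen after seeing the data; LeuRS-m is lost in the first 4. Without 1 replicate it ran from 1 to 3. The median signal of bound mitochondrial genes, 117 over 2 genes, was 71.0 at 200 bp, at 500 bp and with nearest genes, where PheRS-m alone was left. No alternative put the mitochondrial count above the cytoplasmic one. With 50 and 250 bp to each side of bound summits, TATCGATA lay at 0 and 5, GAGAG at 1 and 5, CAGCTG at 2 and 5, TGATGNAA at 0 and 2, GGTCACAC at 1 and 1, and CAGGTAG at 0 and 0. The shares of all thresholded summits with each word in these windows were not computed. A wider window holds any word more often, so these counts do not show that a word is more common at the members. No paired analysis was possible because there was 1 group. Unknown depth limits what a missing peak says.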
